A study of Mus musculus with 121 samples.

Results

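Sod2 and 9 other antioxidant enzymes were followed over brain regions, mouse models and Gdnf genotypes: Sod1, Sod3, Cat, Gpx1, Gpx4, Prdx3, Prdx5, Txn2 and Gsr. The members were taken by symbol, and each had 1 row among the 24412 genes of the count table. They were chosen by a measured value, the higher Sod2 level in AAV-Cre PFC of HOM mice against WT mice, so every value of that comparison is given here as a description with no test. Cells turn the superoxide that leaks from respiration into hydrogen peroxide with superoxide dismutases, and catalase, glutathione peroxidases and peroxiredoxins then turn the peroxide into water or alcohols. Sod2, Prdx3, Prdx5 and Txn2 act largely in mitochondria, where most of this superoxide forms, and the oxidised partners are reduced again by thioredoxin and glutathione systems that draw on NADPH. Dopamine neurons of the SN are known for a high oxidative load, since dopamine breakdown itself yields peroxide.

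The study measured RNA from prefrontal cortex (PFC), striatum (STR) and substantia nigra (SN) of male mice with altered endogenous Gdnf, the gene of a dopamine neuron survival factor. Its question was what a raised level of this factor does in the brain. In Gdnf cHyper mice (the cKU allele), Cre recombinase acts on the Gdnf locus itself, so that Gdnf can rise in the cells that naturally express it. Mice were wild type (WT, wt/wt), heterozygous (HET, wt/cKU) or homozygous (HOM, cKU/cKU) on a mixed 129Ola/ICR/C57bl6 background.

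In the first model, Gdnf cHyper;Nestin-Cre, the Nestin promoter drives Cre in neural precursors from mid-gestation on, and the mice were untreated and 2 months old. In the second, Gdnf cHyper + AAV-Cre, mice of all 3 genotypes received Cre by an AAV vector into both striata at 3 to 5 months of age and were 5 to 7 months old at collection. Age, injection and source of Cre therefore differ together between the models and cannot be told apart. The Nestin-Cre groups held 8 WT, 6 HET and 4 HOM libraries in PFC, and 6 WT, 7 HET and 6 HOM libraries in each of STR and SN. The AAV-Cre groups held 7 WT, 7 HET and 8 HOM libraries in PFC and in SN, and 7 of each genotype in STR. The libraries came from 21 Nestin-Cre and 22 AAV-Cre mice, and their totals ran from 9869584 to 26750905 counts with a median of 17885830. The labels give M4575 as a WT mouse for its PFC piece but as a HOM mouse for its STR and SN pieces, and results that turn on it are given with and without it.

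Levels are in cpm, counts scaled to the library total with TMM factors over all libraries, and are given as mean ± SD over the libraries of a group. A gene is called when its edgeR quasi-likelihood F test has an adjusted p under 0.1, with the adjustment over all genes of the fit. All 10 members passed the filter on low counts in every fit. In the mm10 annotation Sod2 (Entrez gene 20656) spans chr17:13007839-13018119 on the plus strand. The other members lie apart from it, Sod1 (20655) on chromosome 16, Sod3 (20657) on 5, Cat (12359) on 2, Gpx1 (14775) on 9, Gpx4 (625249) on 10, Txn2 (56551) on 15 and Gsr (14782) on 8, with Prdx3 (11757) and Prdx5 (54683) both on 19. The samples are tissue pieces, in which fewer cells of a type and less RNA per cell cannot be told apart.

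The regions carried the markers of their labels. The 8 midbrain dopamine neuron markers summed to group means of 3067 to 4036 cpm in the SN groups and of 66.8 to 113 cpm elsewhere, with Slc6a3 the most abundant of them in SN. The 8 striatal projection neuron markers reached 7039 to 9834 cpm in STR, led by Penk or Ppp1r1b. The 8 cortical excitatory neuron markers reached 1975 to 2243 cpm in PFC, led by Slc17a7, against 72.9 to 178 cpm elsewhere. None of these markers was at 0 in all libraries of its own region.

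Gdnf (Entrez gene 14573, chromosome 15), the targeted gene, was highest in the striatum. Its WT level in STR was 5.98 ± 1.27 cpm (n = 6) in Nestin-Cre and 6.65 ± 0.731 cpm (n = 7) in AAV-Cre mice, while group means in PFC and SN stayed under 1.1 cpm. In AAV-Cre STR the HOM libraries ran from 7.71 to 10.1 cpm with a median of 8.66, and the WT libraries from 5.49 to 7.51 cpm with a median of 6.82. Every HOM library of that region thus lay above every WT library, with a log2 difference of 0.40 (SE 0.09, adjusted p = 0.504), which was not called. The HET libraries there, at 7.63 ± 1.06 cpm, lay between and overlapped both (log2 difference 0.20). In Nestin-Cre STR, Gdnf was 6.25 ± 1.83 cpm in HET and 7.26 ± 1.47 cpm in HOM mice, with log2 differences to WT of 0.07 and 0.28 and overlapping libraries. The Gdnf counts cover 4867 bases of annotated exon, while the study describes a short 3'UTR in the mRNA of the recombined allele. The part of this in the Gdnf counts was not tested. By qPCR the study reports raised striatal Gdnf RNA in HET and HOM mice of both models.

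Per kilobase of exon, the members differed in level by over an order of magnitude. In every WT group the 2 highest were Sod1, the cytosolic superoxide dismutase, and Prdx5, a peroxiredoxin of mitochondria and other compartments. Sod1 had WT group means of 222 to 433 cpm per kilobase and Prdx5 of 219 to 349. Sod2 lay at 29.3 to 40.8 cpm per kilobase, seventh of the 10 in 5 WT groups and eighth in Nestin-Cre SN, where Cat was higher. Sod3, the secreted superoxide dismutase, was the lowest in each WT group at 3.57 to 8.04 cpm per kilobase. Sod3 also varied most between mice of a group, with a coefficient of variation within groups of 47.7%, against 5.90% for Txn2 to 11.4% for Gpx1 among the other 9.

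Sod2, the manganese superoxide dismutase of the mitochondrial matrix, held a narrow band over the whole series. Its 18 group means ran from 112 cpm in AAV-Cre PFC WT to 169 cpm in AAV-Cre SN HOM, a ratio of 1.51, and its libraries from 101 to 197 cpm. By the order of means, the 6 SN groups and AAV-Cre PFC HOM filled the top 7 places, and each group's libraries overlapped those of the next group in the order. No neighbours in that order differed beyond their spread.

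In AAV-Cre PFC, the tissue whose HOM comparison selected the gene, Sod2 ran from 101 to 133 cpm with a median of 108 in the 7 WT libraries. It ran from 109.7 to 162 cpm with a median of 127 in the 7 HET libraries. In the 8 HOM libraries it ran from 130.1 to 185 cpm with a median of 151. All 8 HOM libraries lay above the WT mean and 7 of them above every WT library. The overlap rested on M3585, the highest WT mouse at 133 cpm, and M3570, the lowest HOM mouse at 130.1 cpm. The log2 difference of HOM to WT was 0.44, with means of 153 ± 15.8 and 112 ± 10.4 cpm.

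The HOM level of AAV-Cre PFC, at 153 cpm, lay among those of the SN groups and was the highest of the PFC groups. The WT level of AAV-Cre PFC was the lowest of the 18 groups. Between them lay the PFC means of Nestin-Cre WT (136 cpm), HOM (136 cpm) and HET mice (135 cpm) and of AAV-Cre HET mice (129.9 cpm). Sod2 in PFC of WT mice was 136 ± 10.7 cpm (n = 8) in the Nestin-Cre model against 112 cpm in the AAV-Cre model. These AAV-Cre WT libraries took part in the selection of Sod2, so comparisons of Sod2 that use them are descriptions as well. Among them, the HET libraries of AAV-Cre PFC had a mean of 129.9 ± 18.9 cpm, with 6 of 7 above the WT mean and 2 above every WT library. Their log2 difference to WT was 0.21.

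The 2 other regions of the same AAV-Cre mice did not enter the selection. In AAV-Cre STR, Sod2 ran from 117 to 147 cpm with a median of 123 in WT libraries and from 129 to 156 cpm with a median of 144 in HOM libraries. All 7 HOM libraries lay above the WT mean, but only 1 lay above M3585, which was again the highest WT mouse. The log2 difference was 0.19 (95% interval 0.08 to 0.29, adjusted p = 0.836) and was not called. In AAV-Cre SN, WT libraries ran from 144 to 168 cpm with a median of 155 and HOM libraries from 146 to 197 cpm with a median of 170.2. There 6 of 8 HOM libraries exceeded the WT mean and 5 exceeded every WT library, and M3690 and M3749 lay below the mean. The log2 difference was 0.12 (SE 0.06, adjusted p = 0.657), not called. HET libraries overlapped WT libraries in both regions, with log2 differences of 0.03 in STR and 0.01 in SN.

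Since the 3 regions came from the same animals, they are not independent readings of the genotype. The difference of the HOM effect between SN and STR was -0.07 (adjusted p = 1) for Sod2, from a fit that also holds the PFC libraries.

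In Nestin-Cre mice the Sod2 levels of the 3 genotypes overlapped in every region. In PFC it ran from 119 to 155 cpm with a median of 137 in WT mice. The 4 HOM mice there had 116 cpm (M4568), 124 cpm (M4569), 131 cpm (M4580) and 172 cpm (M4393). Only M4393 stood above the WT libraries, and the same mouse was the highest HOM mouse in STR at 187 cpm and in SN at 185 cpm. The log2 difference of HOM to WT in PFC was 0.00, and without M4393 it was -0.13. In STR the WT libraries ran from 131 to 156 cpm and the HOM libraries from 130.4 to 187 cpm, and in SN from 132 to 175 and from 111 to 185 cpm. All 6 log2 differences of HET or HOM to WT in this model lay between -0.03 and 0.04.

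**Figure D1:**
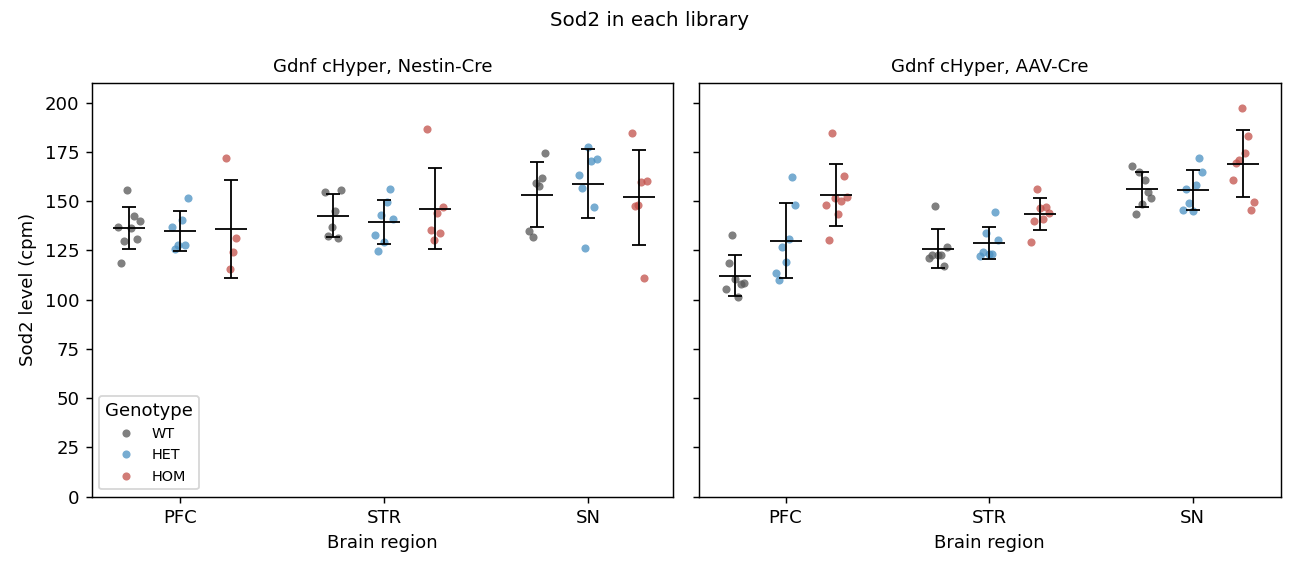
Sod2 level (cpm, vertical axis from 0) in each library by brain region, with WT in grey, HET in blue and HOM in red, and black bars for the mean ± SD of each group. The AAV-Cre PFC WT libraries, with a mean of 112 cpm, are the lowest group. The AAV-Cre PFC HOM libraries at 153 cpm lie within the range of the SN groups and have the highest mean of the PFC groups.

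The tests between regions that follow count libraries of the same mouse as independent, except where the mouse is given as a block. Over regions of WT mice, Sod2 was highest in SN. In AAV-Cre mice it was 156 ± 8.80 cpm in SN and 126 ± 9.89 cpm in STR, with 1 STR library (M3585, 147 cpm) inside the SN range. That log2 difference of 0.34 (SE 0.06, adjusted p = 9.18e-06) was called. The SN and STR libraries took no part in the selection, but the fit that gives the SE also holds the PFC WT libraries that did. In Nestin-Cre mice Sod2 was 153 ± 16.5 cpm in SN, 143 ± 10.9 cpm in STR and 136 ± 10.7 cpm in PFC, with overlapping libraries. SN exceeded PFC by a called log2 difference of 0.16 (SE 0.07, adjusted p = 0.0415), while SN against STR (0.10) and STR against PFC (0.05) were not called. SN against STR was called, at 0.14, with DESeq2 size factors, with DESeq2 and with the mouse as a block. Against the AAV-Cre WT PFC libraries, the description gave 0.51 for SN and 0.16 for STR.

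Sod1, which acts in the cytosol with copper and zinc, differed widely between regions in the younger model. In Nestin-Cre WT mice it ran from 128 to 154 cpm with a median of 145 in PFC, from 190.1 to 321 cpm with a median of 268 in STR, and from 228 to 334 cpm with a median of 284 in SN. No PFC library reached the lowest library of STR or SN, and STR and SN overlapped. Its log2 differences to PFC were 0.86 (SE 0.09, adjusted p = 2.22e-08) in STR and 0.94 (SE 0.09, adjusted p = 2.66e-09) in SN. Both were much smaller, though still called, with the length trend removed, as given below. The same gene in AAV-Cre WT mice was 158 ± 6.93 cpm in PFC, 187 ± 10.6 cpm in STR and 179.8 ± 16.9 cpm in SN. The called differences to PFC there were smaller, 0.24 in STR and 0.22 in SN. By genotype, the 11 tested log2 differences of Sod1 lay between -0.20 and 0.03 and none was called.

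Sod3 was low and uneven. In Nestin-Cre SN of WT mice it ran from 6.07 to 36.3 cpm with a median of 10.8, and in the other 5 WT groups no library exceeded 17.8 cpm. The high values came from M4329 at 36.3 cpm and M4394 at 27.0 cpm, and the other 4 mice lay among the libraries of PFC and STR. The log2 differences of 0.90 against PFC (SE 0.34) and 0.89 against STR (SE 0.37) were called, and the second was not called with the mouse as a block (0.60). Neither was tested without those 2 mice. The 7 mural cell markers, whose sum in those WT libraries was 464 ± 286 cpm and whose most abundant gene was Vtn, varied widely there too, with no marker at 0. Over all libraries with group means removed, Sod3 had r = 0.49 with the mural sum and r = 0.42 with the sum of the 7 choroid plexus markers. Their part in the Sod3 differences was not tested.

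Cat, the peroxisomal catalase, was the clearest nigral member. In Nestin-Cre WT mice it ran from 104.9 to 133 cpm with a median of 124 in SN, from 44.5 to 58.3 cpm in STR and from 47.7 to 62.6 cpm in PFC. Every SN library lay well above every STR and PFC library, and STR and PFC overlapped. The log2 differences of SN were 1.14 (SE 0.07, adjusted p = 2.35e-12) to PFC and 1.17 (SE 0.07, adjusted p = 5.52e-12) to STR. Cat in AAV-Cre WT mice ran from 74.6 to 91.1 cpm in SN, from 46.9 to 65.2 cpm in STR and from 48.0 to 61.3 cpm in PFC, again without overlap of SN with either. Those differences were 0.62 to PFC and 0.67 to STR, both called. STR and PFC did not differ by call in either model (-0.04 and -0.05). The 10 oligodendrocyte markers, led by Mbp and none at 0, were also highest in SN, with WT means of 26211 ± 6246 cpm against 8596 ± 2304 cpm in STR and 5370.4 ± 884 cpm in PFC of Nestin-Cre mice. The AAV-Cre means were 16665 ± 2489, 10099 ± 1769 and 4789 ± 433 cpm. With group means removed, over all libraries, Cat had r = 0.49 with this sum. It had r = 0.55 with the sum of the 10 microglial markers and 0.41 with that of the 10 astrocyte markers. The microglial sum of WT mice was 691 cpm in SN, 657 in STR and 488 in PFC with Nestin-Cre, and 522, 640 and 599.8 cpm with AAV-Cre. The part of these sums in the Cat differences was not tested.

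Gpx1, the main cytosolic and mitochondrial glutathione peroxidase, was instead a striatal member. In Nestin-Cre WT mice it ran from 128 to 188 cpm with a median of 162 in STR, from 89.99 to 122 cpm with a median of 107 in SN, and from 46.8 to 68.7 cpm with a median of 63.8 in PFC. The 3 regions did not overlap. STR exceeded PFC by 1.38 (SE 0.09, adjusted p = 2.41e-11), and SN against STR had a difference of -0.57 (SE 0.10, adjusted p = 2.14e-05). Gpx1 in AAV-Cre WT mice was 108 ± 9.33 cpm in STR, 69.1 ± 9.20 cpm in PFC and 66.2 ± 2.82 cpm in SN. STR stood above both other regions by call, with 0.64 to PFC and -0.67 for SN to STR, and SN and PFC overlapped (-0.03, not called).

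Gpx4, which reduces lipid peroxides in membranes, rose from PFC over STR to SN in Nestin-Cre WT mice only. There its means were 123 ± 9.91, 157 ± 21.2 and 196 ± 31.4 cpm, and the libraries of neighbouring regions overlapped. The called log2 differences to PFC were 0.33 in STR and 0.66 in SN. Its means in AAV-Cre WT mice were 131 ± 5.88, 115 ± 8.66 and 124 ± 7.16 cpm in the same order, with STR below PFC by call (-0.18) and SN against PFC not called (-0.04). The region differences of this gene thus took opposite signs between the models in STR, and the test of that difference is given with the models.

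Prdx3, the peroxiredoxin of the mitochondrial matrix, was higher in SN in both models. In Nestin-Cre WT mice it was 69.5 ± 6.60 cpm in PFC, 94.8 ± 9.47 cpm in STR and 122 ± 14.9 cpm in SN. SN libraries, from 99.1 cpm up, all lay above the PFC libraries, which reached 80.3 cpm. The log2 differences to PFC were 0.43 in STR and 0.79 in SN (SE 0.08 each), both called. The AAV-Cre WT means were 58.7 ± 4.63, 69.4 ± 6.02 and 77.3 ± 3.92 cpm, with called differences of 0.24 and 0.43.

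Prdx5 was 161 ± 11.9 cpm in PFC, 189.5 ± 26.0 cpm in STR and 239.8 ± 29.6 cpm in SN of Nestin-Cre WT mice. Its called log2 differences to PFC were 0.22 in STR and 0.56 in SN, and only SN stood clear of PFC without overlap. With the mouse as a block the STR difference was 0.14 and not called, and with the length trend removed both differences changed sign, to -0.24 in STR and -0.04 in SN. With AAV-Cre its WT libraries ran from 143 to 166 cpm in PFC, from 137 to 164 cpm in STR and from 157 to 199 cpm in SN, and only SN differed by call (0.22 to PFC, 0.27 to STR).

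Txn2, the mitochondrial thioredoxin that serves Prdx3, ran the other way. In AAV-Cre WT mice it fell in steps from 119 ± 6.03 cpm in PFC over 95.9 ± 4.42 cpm in STR to 83.9 ± 2.88 cpm in SN. The PFC libraries, from 110.1 cpm up, all exceeded the STR libraries, which reached 102 cpm, and these in turn all exceeded the SN libraries, which reached 88.1 cpm. The called log2 differences to PFC were -0.31 in STR and -0.47 in SN (SE 0.04 each). In Nestin-Cre WT mice Txn2 was 125 ± 8.64 cpm in PFC, 132 ± 18.7 cpm in STR and 104 ± 6.85 cpm in SN, so only SN was lower by call (-0.28 to PFC, -0.35 to STR). The STR difference to PFC turned from 0.06 to -0.14 with the length trend removed.

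Gsr, which returns oxidised glutathione to its reduced form, differed least. Its 18 group means lay between 30.4 and 43.3 cpm. SN was lower than PFC by a called -0.08 (SE 0.04) in AAV-Cre WT mice, and lower than STR by a called -0.22 (SE 0.12) in Nestin-Cre WT mice. The second was not called with DESeq2 (-0.19). In Nestin-Cre SN against PFC, Gsr was at -0.17 and not called, but it was called at -0.24 without M4575 and at -0.24 with the mouse as a block. The PFC libraries of Nestin-Cre WT mice spread from 23.9 to 48.4 cpm and covered both other regions.

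**Figure D2:**
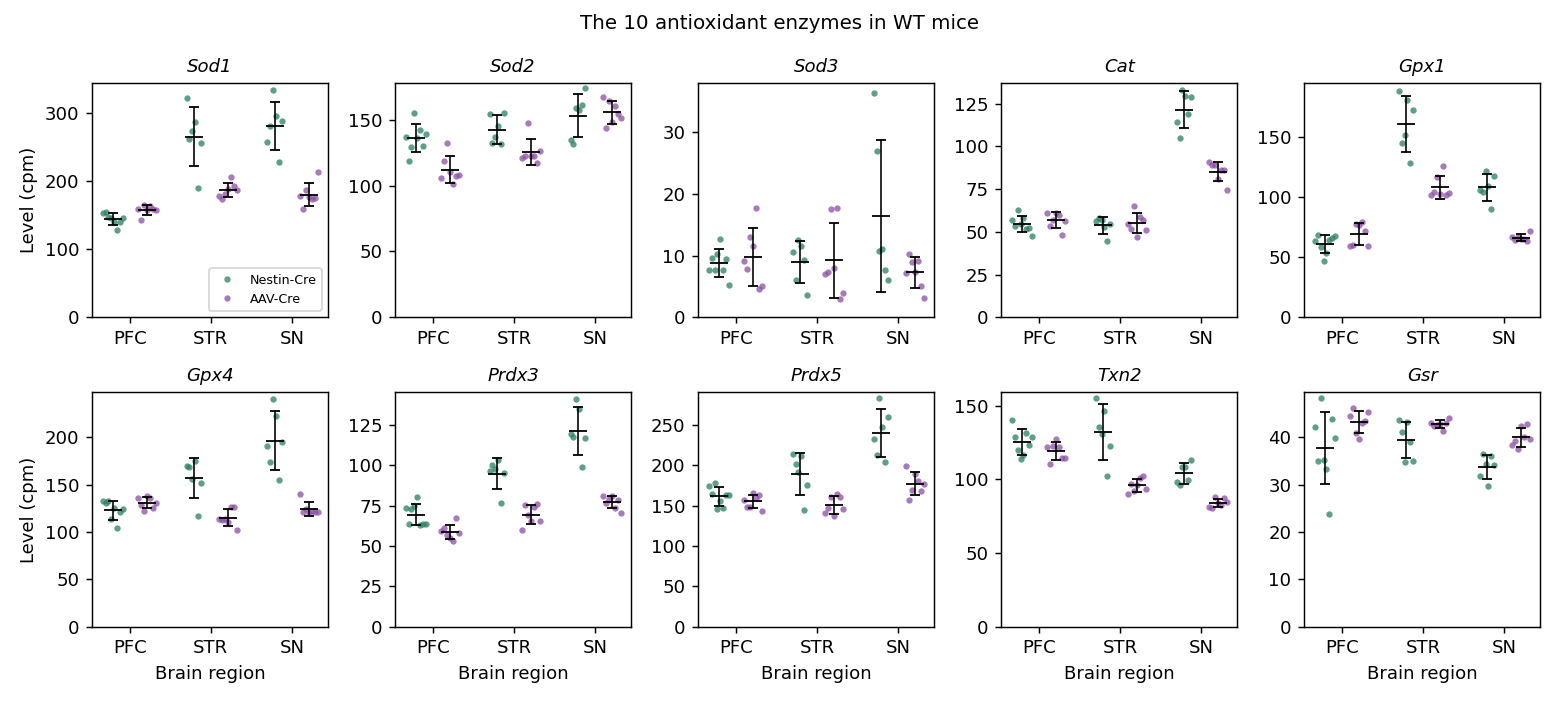
Levels of the 10 members (cpm, vertical axes from 0) in WT libraries of PFC, STR and SN, with Nestin-Cre mice in green and AAV-Cre mice in purple, and black bars for the mean ± SD of each group. Cat stands apart in SN in both models, Gpx1 in STR, and most members are higher in Nestin-Cre than in AAV-Cre SN, while Sod2 is level there at 153 and 156 cpm.

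Counted over the members, the WT regions of Nestin-Cre mice differed mainly upwards from PFC. In SN against PFC, 8 of 10 members were called higher (37.6% of 14926 genes) and 1, Txn2, lower (41.2%), with Gsr not called. The members' median log2 difference was 0.72, against -0.03 for all genes. In STR against PFC, 5 members were called higher (34.2% of all genes) and 0 lower (34%), with medians of 0.14 and 0.00. In SN against STR, 5 were called higher (37.8%) and 3 lower (38.3%), with medians of 0.21 and 0.01.

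In AAV-Cre WT mice the members' counts lay nearer to those of all genes. Sod2 is left out of the counts against PFC, whose WT libraries took part in its selection. In STR against PFC, 3 of the 9 others were called higher (33.8% of 15043 genes) and 2 lower (31.8%). In SN against PFC, 4 of the 9 were called higher (37.7%) and 2 lower (36.4%). In SN against STR, 5 of all 10 members were called higher (39.7%), Sod2 among them, and 2 lower (35.9%). In SN against STR the median of all 10 members was 0.06, against 0.03 for all genes. No median is given against PFC, since that of all 10 members includes Sod2.

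The wider antioxidant lists held 91 genes beside the members. In Nestin-Cre WT mice, 57 of the 83 measured were called higher and 11 lower in SN against PFC, 52 and 13 in SN against STR, and 32 and 21 in STR against PFC. Over all genes the shares called higher and lower were 37.6% and 41.2%, 37.8% and 38.3%, and 34.2% and 34%, so the last of these counts lies near the background. With AAV-Cre the corresponding counts of 83 were 45 and 15, 50 and 16, and 31 and 25, beside all-gene shares of 37.7% and 36.4%, 39.7% and 35.9%, and 33.8% and 31.8%. Glutathione S-transferases, which attach glutathione to reactive compounds, were the most uniform list in Nestin-Cre SN, with 12 of 12 called higher than in PFC (median 0.96) and than in STR (median 1.02). In AAV-Cre mice 7 of the 12 were called higher in SN than in PFC and 2 lower. By list, with members included where a list holds them, Nestin-Cre SN against PFC gave these counts, beside 37.6% of all genes called higher and 41.2% lower. The superoxide dismutases and their copper chaperone had 3 of 4 called higher (median 0.53), and catalase and the glutathione peroxidases 5 of 7 (median 0.81). The peroxiredoxins with sulfiredoxin had 6 of 7 called higher (median 0.56), and glutathione synthesis and NADPH supply 8 of 10 (median 0.64). None of these lists held a gene called lower. Thioredoxins, glutaredoxins and their reductases had 8 of 12 called higher and 3 lower, and the NRF2 pathway 6 of 9 higher and 1 lower. NF-kB and cytokine response genes had 4 of 9 higher and 1 lower, and the regulators of mitochondrial antioxidant genes had 2 of 10 higher and 5 lower. The last 2 lists lie near the all-gene shares in at least 1 direction. The shares of all genes in Nestin-Cre SN against PFC varied with exon length, which is taken up below. Up to 700 bases, 77.1% were called higher and 8.01% lower, and over 4000 bases 26.5% and 55.3%. The list counts were not corrected for length.

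The 18 mitochondrial content genes had 14 called higher and 2 lower in Nestin-Cre SN against PFC (median 0.28), and 11 and 2 in AAV-Cre SN (median 0.17). All genes were called higher and lower in 37.6% and 41.2% in the first and in 37.7% and 36.4% in the second comparison. Among genes of all lists, the largest rises and falls in SN against PFC include En1 at 9.70 and Slc6a3 at 9.69, which mark dopamine neurons, and Tbr1 at -6.63, which marks cortical neurons, for Nestin-Cre SN against PFC. In AAV-Cre SN against PFC En1 at 12.56 and Slc6a3 at 9.96 were again highest, and Tbr1 was at -7.16. In AAV-Cre STR against PFC the largest rises were those of the choroid plexus genes Ttr (9.20) and Folr1 (5.20), and Ttr was also the largest fall in AAV-Cre SN against STR (-6.58). Ttr was uneven in those STR libraries, at 1983 ± 3188 cpm with a range of 72.5 to 7639 cpm. These differences were not tested without the high libraries. The peroxidase gene Gpx6 led the rises in Nestin-Cre STR against PFC, at 4.95 (SE 0.54), beside the adenosine receptor gene Adora2a at 4.91, while Slc17a7 (-4.05) and Tbr1 (-3.48) were lowest.

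Exon length moved with several of these differences. In Nestin-Cre WT SN against PFC, the median log2 difference of all genes fell from 0.76 for genes of up to 700 bases to -0.29 for genes over 4000 bases, and 77.1% of the shortest but 26.5% of the longest genes were called higher. In STR against PFC the same medians were 0.55 and -0.16. The AAV-Cre class medians of SN against PFC in WT mice lay between 0.00 and 0.05. Sod1 (648 bases) and Prdx5 (688 bases) are short, Gpx1 (1047), Txn2 (1282), Prdx3 (1445), Gpx4 (1534) and Sod3 (2045) are of middle length, and Cat (2551), Gsr (2672) and Sod2 (3824) are longer.

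A length index for each library, the median log2 level of 508 genes of up to 1000 bases minus that of 4043 genes over 4000 bases, each gene centred over all libraries and the members left out, gave the same picture by mouse. It averaged 0.72 in Nestin-Cre WT SN (above 0 in 6 of 6 libraries) and 0.41 in Nestin-Cre WT STR (5 of 6), while PFC and AAV-Cre groups had means between -0.30 and -0.11. With group means removed, r with this index over all libraries was 0.94 for Sod1, 0.92 for Gpx4, 0.84 for Txn2, 0.83 for Gpx1, 0.83 for Prdx5, 0.75 for Prdx3 and 0.61 for Cat. It was 0.10 for Gsr, 0.03 for Sod2 and -0.13 for Sod3. The models differed in this: in the 65 AAV-Cre libraries r was 0.76 for Sod1, 0.72 for Gpx4, 0.50 for Prdx5, 0.31 for Prdx3 and 0.06 for Cat, and in the 38 Nestin-Cre libraries of STR and SN it was 0.98, 0.96, 0.91, 0.89 and 0.83. These are descriptions over libraries that share mice and depth, and what sets the index was not tested.

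With the length trend taken out of each library, an alternative chosen after seeing the data, the region differences of Cat barely moved, those of Sod2 grew and those of the short members shrank. In Nestin-Cre SN against PFC, Cat was 1.16, Prdx3 0.58, Gpx4 0.48, Gpx1 0.43, Sod2 0.32 and Sod1 0.31, each still called. Prdx5 went from 0.56 to -0.04 and was no longer called. In STR against PFC of the same mice, Gpx1 was 1.11, Sod1 0.38 and Sod2 0.17, all called, and Prdx5 turned from 0.22 to -0.24.

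**Figure D3:**
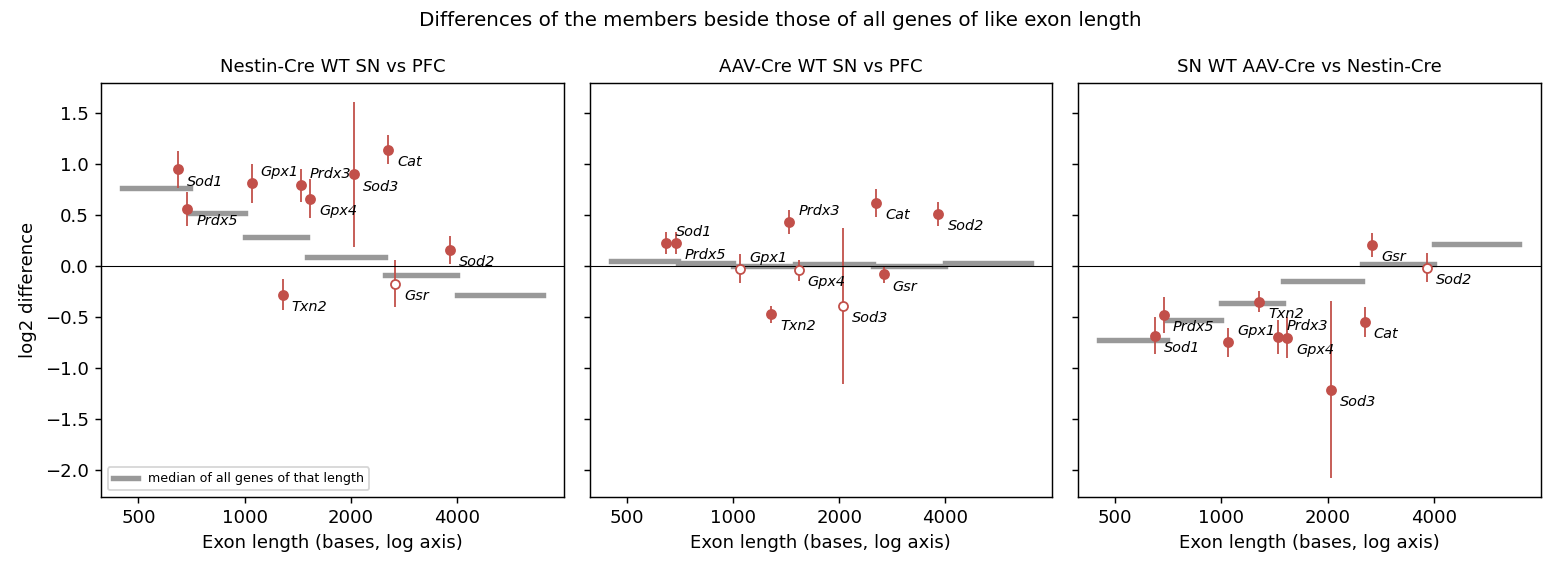
Log2 differences of the members (points, with 95% intervals, filled where called) against exon length in bases on a log axis, beside the median of all genes of each length class (grey bars), in 3 WT comparisons. In Nestin-Cre SN against PFC the grey medians fall from 0.76 to -0.29, in AAV-Cre SN against PFC they lie near 0, and between models in SN they rise from -0.72 to 0.22.

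Between the models, WT mice differed in members mostly outside PFC. In SN, 8 of 10 members were called lower in AAV-Cre than in Nestin-Cre mice (31.9% of 14704 genes) and 1, Gsr, higher (30.5%), with a members' median of -0.62 against -0.01 for all genes. Sod2 was the member not called, at -0.02 (SE 0.07, adjusted p = 0.862), with libraries of 144 to 168 cpm against 132 to 175 cpm. Sod3 differed most, at -1.21 (SE 0.40, adjusted p = 0.0196), with 7.30 ± 2.49 cpm against 16.4 ± 12.3 cpm. The AAV-Cre Sod3 libraries reached 10.2 cpm, inside the Nestin-Cre range, and the Nestin-Cre mean includes the 2 high mice named above. Cat differed by -0.55 (SE 0.07) with no overlap, since its AAV-Cre libraries reached 91.1 cpm and its Nestin-Cre libraries began at 104.9 cpm. Gpx1 was at -0.75, Gpx4 at -0.70, Prdx3 at -0.69, Sod1 at -0.68, Prdx5 at -0.48 and Txn2 at -0.35.

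In STR, 7 members were called lower in AAV-Cre mice (29.9% of 14449 genes) and 1, Gsr, higher at 0.14 (32%). The members' median was -0.36, against 0.02 for all genes. Gpx1 led at -0.55, followed by Sod1 at -0.48, and Sod2 was among the 7 at -0.16 (SE 0.06, adjusted p = 0.0426). In PFC, Sod1 (0.14) and Gpx1 (0.19) were called higher (24.3% of 14461 genes) and Prdx3 (-0.23) lower (22.6%) among the 9 members other than Sod2. Gpx1 was not called there with DESeq2 size factors (0.19) or without the filter on low counts (0.18). Sod2 in PFC was at -0.27, a description, since it uses WT libraries that took part in its selection.

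Several cell type markers also differed between the models in WT SN. The 10 markers, led by Mbp and none at 0, summed to 26211 ± 6246 cpm in Nestin-Cre WT SN and to 16665 ± 2489 cpm in AAV-Cre WT SN. The 8 endothelial markers, led by Slco1a4, went the other way without overlap, from 162 to 239 cpm in Nestin-Cre and from 244 to 292 cpm in AAV-Cre libraries. The 7 mural cell markers, led by Vtn, had means of 464 ± 286 and 292 ± 58.8 cpm, and the 10 astrocyte markers, led by Slc1a2, 6850.1 ± 1081 and 5701 ± 427 cpm. None of these markers was at 0 in all libraries of either group, and the oligodendrocyte, mural cell and astrocyte sums overlapped between the models. The 10 microglial markers summed to 691 ± 132 cpm in Nestin-Cre and 522 ± 77.2 cpm in AAV-Cre WT SN, with overlapping libraries. Over all libraries with group means removed, r with this sum was 0.61 for Gpx4, 0.55 for Cat, 0.49 for Prdx3 and 0.47 for Sod1. It was 0.45 for Gpx1 and Txn2, 0.43 for Prdx5, 0.08 for Sod3, 0.01 for Sod2 and -0.05 for Gsr. The lists given here do not cover every cell type. Among list genes, the microglial gene Fcrls (-2.40) and the oligodendrocyte gene Opalin (-1.76) were lowest in AAV-Cre SN, and Adora2a (2.38) and the immediate-early gene Fosb (1.42) highest. Adora2a was at 7.54 ± 13.3 cpm in AAV-Cre and 1.41 ± 0.548 cpm in Nestin-Cre WT SN, and 1 AAV-Cre library held 37.1 cpm. Their part in the members' differences was not tested. Of the 83 measured genes of the wider lists, 48 were called lower and 11 higher in AAV-Cre SN, 32 and 22 in STR, and 25 and 24 in PFC. The shares of all genes called lower and higher were 31.9% and 30.5%, 29.9% and 32%, and 22.6% and 24.3%, so the PFC counts lie near the background. All 12 glutathione S-transferases were called lower in AAV-Cre SN (median -0.62). In that comparison the all-gene median was -0.72 for genes of up to 700 bases. It was -0.52 from there to 1000 bases and -0.36 from there to 1500 bases. No length-corrected count was made for the lists.

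Length classes moved with the models as well. All-gene medians in SN ran from -0.72 for the shortest to 0.22 for the longest class, and in STR from -0.41 to 0.18. With the length trend removed, Sod1 in SN went from -0.68 to -0.04, Txn2 from -0.35 to -0.03 and Prdx5 from -0.48 to 0.14. Cat (-0.51), Gpx4 (-0.45), Prdx3 (-0.42) and Gpx1 (-0.33) stayed called as lower, as did Sod3.

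A test of whether the region differences themselves differed between models, added after seeing the data, put numbers on this. For SN against PFC, 8 of the 9 members other than Sod2 had a difference called lower in AAV-Cre mice (19.8% of 15318 genes) and 0 one called higher (25.3%). They were led by Sod3 at -1.32 (SE 0.53), Gpx1 at -0.88 (SE 0.12), Sod1 at -0.76 (SE 0.11) and Gpx4 at -0.74 (SE 0.11). With the length trend removed, Prdx5 turned to 0.21 and Txn2 to 0.06, and Prdx3 was no longer called (-0.17). Sod2, at 0.31, is a description, since it rests on the WT PFC libraries of its selection. For STR against PFC, 5 members were called lower (14.1%) and 0 higher (15.2%), with Gpx1 at -0.74, Sod1 at -0.62 and Gpx4 at -0.52. With the mouse as a block, 4 members were called there. Prdx5 there turned from -0.26 to 0.11 with the length trend removed. For SN against STR, 2 were called lower (14.7%), Sod3 at -1.22 and Cat at -0.55, and 0 higher (19.3%). Sod3 was not called there without the filter on low counts, with the mouse as a block (-0.79) or with the length trend removed (-1.18), and its Nestin-Cre SN mean includes the 2 high mice. With that block, 4 members were called in place of 2. Cat at -0.55 (SE 0.10, adjusted p = 0.000191) had a nigral excess of 1.17 in the younger and 0.67 in the older mice. Of the wider lists, 40 of 85 measured genes were called lower and 12 higher for SN against PFC, 14 and 9 for STR against PFC, and 35 and 5 for SN against STR, beside all-gene shares of 19.8% and 25.3%, 14.1% and 15.2%, and 14.7% and 19.3%.

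Genotype moved no member past the threshold in the 11 comparisons that can be tested. In Nestin-Cre PFC, 0 of 10 members were called in HET mice (0% of 14386 genes) and 0 in HOM mice (0.25%, 36 genes). In Nestin-Cre STR, 0 members were called in HET and 0 in HOM mice (0% of 14494 genes in each). In Nestin-Cre SN it was 0 and 0 members (0% of 14873 genes in each). In AAV-Cre mice, 0 members were called in PFC HET (0% of 14628 genes, with Sod2 as a description only), in STR HET and HOM (0% of 14655 genes in each) and in SN HET and HOM (0% of 14813 genes in each). The PFC HET comparison shares its WT libraries with the comparison that chose Sod2, so the value of Sod2 there is not independent of its selection. In the comparison that chose Sod2, AAV-Cre PFC HOM, 0.0137% of genes were called, and nothing is read from that share.

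Those zeros come from edgeR's quasi-likelihood test. At an unadjusted p under 0.05 it had 1398 genes in Nestin-Cre PFC HET, 1446 in PFC HOM, 2513 in STR HET, 670 in STR HOM, 1337 in SN HET and 608 in SN HOM. In AAV-Cre mice it had 1806 in PFC HET, 251 in STR HET, 671 in STR HOM, 694 in SN HET and 1109 in SN HOM. In the same 11 comparisons DESeq2 called 116, 227, 535, 1, 5, 1, 6, 0, 5, 1 and 10 genes, with no member among them. The likelihood ratio test of edgeR called 415, 310, 1242, 277, 332, 119, 248, 56, 175, 324 and 218 genes. Its calls in Nestin-Cre STR HET held 2 members, Gpx1 at -0.34 and Gpx4 at -0.34, both lower in HET mice. Of 82 to 86 measured genes of the wider lists, edgeR called 0 in each of the 11 comparisons.

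Gpx4 was the member nearest to a call. In Nestin-Cre STR it ran from 117 to 176 cpm with a median of 162 in WT mice and from 90.1 to 149 cpm with a median of 129 in HET mice. All 7 HET libraries lay below the WT mean and 3 below every WT library, so the groups overlapped. The log2 difference was -0.34 (SE 0.16, adjusted p = 0.28). In Nestin-Cre SN, Gpx4 was 196 ± 31.4 cpm in WT and 155 ± 27.8 cpm in HET mice, with all 7 HET libraries below the WT mean, at -0.35 (SE 0.15, adjusted p = 0.518). Prdx3 in the same libraries was 122 ± 14.9 and 97.8 ± 18.8 cpm, with all 7 again below, at -0.32 (SE 0.15, adjusted p = 0.518). The length index was lower in the HET groups too, at 0.17 against 0.41 in STR and 0.42 against 0.72 in SN. So were glial marker sums, with overlapping libraries. In HET against WT mice, microglial markers had 579 against 657 cpm in STR and 519 against 691 cpm in SN. Oligodendrocyte markers had 7451 against 8596 cpm in STR and 21806 against 26211 cpm in SN, and astrocyte markers 4877 against 4907 and 5913 against 6850.1 cpm. Their part in these differences was not tested. With the length trend removed, Gpx4 was at -0.28 in STR and -0.28 in SN, and Prdx3 in SN at -0.24, again not called.

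In Nestin-Cre PFC the members stayed within -0.13 and 0.06 in HET and within -0.21 and 0.00 in HOM mice. Leaving out 1 HOM mouse of this group at a time called 0 members each time, while the number of all genes called moved from 36 to between 1 and 122. It was 1 without M4568, 9 without M4569, 36 without M4393 and 122 without M4580. Without M4575, 91 genes were called in PFC HET in place of 0 and 37 in PFC HOM, and 0 members in either.

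In AAV-Cre PFC the other 9 members are described beside Sod2. In HOM mice 3 members, Sod2 included, were higher than WT and 7 lower. Sod3 had the largest difference in size, at -0.63, with 6.45 ± 2.60 cpm against 9.81 ± 4.68 cpm in WT mice. Cat was at -0.14, with 51.7 ± 2.75 cpm in HOM and 56.8 ± 4.75 cpm in WT mice, and all 8 HOM libraries lay below the WT mean. Prdx3 was at 0.12, with all 8 above it at 64.2 ± 3.34 against 58.7 ± 4.63 cpm. The remaining 6 members lay between -0.13 and 0.04. No member had HOM libraries that all stood clear of the WT libraries.

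Cell type markers moved in the same AAV-Cre PFC libraries. The 10 neuron markers, led by Snap25 and none at 0, summed to 9456 ± 655 cpm in WT, 10319 ± 569.8 cpm in HET and 10363 ± 809 cpm in HOM mice. The 10 astrocyte markers, led by Slc1a2 and none at 0, summed to 6716 ± 291, 5917 ± 397 and 6101 ± 597 cpm. The 7 mural cell markers summed to 287 ± 30.3, 242 ± 22.1 and 239.5 ± 15.6 cpm, none at 0. The 8 endothelial markers, led by Flt1, summed to 268 ± 28.6, 234 ± 21.3 and 237 ± 23.4 cpm, and the 10 microglial markers, led by Csf1r, to 599.8 ± 75.4, 518 ± 56.0 and 523 ± 58.4 cpm, with no marker at 0 in either list. By these means WT libraries were lower in neuron and higher in astrocyte, microglial and vascular markers than both other genotypes, with overlapping libraries, and the part of this in the Sod2 level was not tested. The 10 oligodendrocyte markers, led by Mbp (4789 ± 433, 4468 ± 463 and 4724 ± 391 cpm) and the 7 parvalbumin interneuron markers, led by Kcnc1 (339 ± 25.5, 353 ± 24.0 and 350.5 ± 19.3 cpm) overlapped over genotypes.

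The 7 choroid plexus markers, led by Ttr, summed to 20131 cpm in M3676 of AAV-Cre SN HET and to 18895 cpm in M4566 of Nestin-Cre STR HET, against group medians of 34.8 and 89.5 cpm. Those mice had the highest Sod3 levels of their groups, at 22.5 and 23.8 cpm. In AAV-Cre STR the same sum had group means of 2126 ± 3372 cpm in WT, 1825 ± 2937 cpm in HET and 1732 ± 2805 cpm in HOM mice, against medians of 241, 152 and 128 cpm. It was high in M3585 and M3588 (WT), M3610 and M3750 (HET) and M3607 and M3690 (HOM), from 4975 to 8224 cpm. M3585 and M3588 also had the highest Sod3 levels of that WT group, both at 17.6 cpm, and the part of these markers in the levels of STR was not tested. The 10 immediate-early genes, led by Egr1, varied within groups, from 304.7 to 943 cpm in AAV-Cre PFC HOM for example. Of 5 red blood cell markers 4 had a row, and the sums stayed between group means of 2.17 and 8.07 cpm, almost all of it Alas2, with at least 2 of the markers at 0 in every library of each group.

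The effect of genotype did not differ by call between regions for any member. In Nestin-Cre mice the HET effect was compared for STR minus PFC (0 members, 0% of 15403 genes), SN minus PFC (0 members, 0.013%) and SN minus STR (0 members, 0.0649%). The HOM effect was compared for the same pairs, with 0 members in each (0%, 0% and 0% of genes). In AAV-Cre mice the HET effect gave 0 members for STR minus PFC (0% of 15442 genes), for SN minus PFC (0.0194%) and for SN minus STR (0.00648%). The HOM effect there gave 0 members for SN minus STR (0.00648%), and pairs that use PFC HOM were not tested. For Sod2 the AAV-Cre pairs with PFC again use the WT libraries of its selection. By edgeR at an unadjusted p under 0.05 these 10 tests had 817, 681, 1787, 338, 311, 430, 745, 2155, 485 and 446 genes, and DESeq2 called 3, 24, 195, 0, 0, 0, 0, 228, 2 and 3. DESeq2 called 1 member, Cat, whose HET effect was 0.26 higher in AAV-Cre SN than in PFC, where edgeR gave an adjusted p of 0.213. The AAV-Cre HET effects on Cat were -0.15 in PFC, with all 7 libraries below the WT mean, and 0.12 in SN, with 5 of 7 above it and 4 above every WT library.

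Among themselves, the members fell into a group that moved together and a few that did not. With group means removed, over all libraries, Sod1 and Gpx4 had r = 0.86, Gpx4 and Prdx5 r = 0.84 and Gpx4 and Txn2 r = 0.80. All 15 pairs among Sod1, Gpx1, Gpx4, Prdx3, Prdx5 and Txn2 had r between 0.57 and 0.86. Cat lay partly with them, at r = 0.65 with Gpx4, 0.62 with Prdx3, 0.59 with Prdx5, 0.55 with Sod1, 0.49 with Txn2 and 0.45 with Gpx1. Sod2 stood apart from them, with r between -0.02 and 0.28, highest with Prdx3. The 6 members of those pairs were also those with the highest r with the length index (0.75 to 0.94), and Sod2, Sod3 and Gsr had the lowest, and the part of the index in the pairs was not tested. Over the 18 group means Sod2 had r = 0.64 with Cat, 0.60 with Prdx5 and 0.56 with Prdx3, and -0.53 with Txn2.

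The genes whose pattern was most like Sod2 were not antioxidant enzymes of the lists. Among 10568 genes with a mean of at least 10 cpm, Gtpbp8 (r = 0.85), Paip2b (0.82), Impad1 (0.82), Rpap3 (0.82) and Tab3 (0.82) were nearest over the 18 group means. Over all libraries with group means removed they were Usp33 (r = 0.67), Opa1 (0.64), Rab5a (0.63), Fam210a (0.62) and Nceh1 (0.62). These points share mice and the scaling of each library. Within groups Sod2 had r = 0.52 with the sum of the neuron markers, the highest over the 13 marker lists, and 0.37 with parvalbumin interneuron markers.

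Promoter sequence shows a feature that the 8 members with a sequence on hand share and that their selection did not use. RefSeq (GRCm38.p6) windows from 250 bases before to 50 bases after the start were on hand for 8 of the 10 members, in 11 windows, and none for Sod3 and Gsr. The GC box letters GGGCGG, or CCGCCC for the other strand, occurred in at least 1 window of all 8 members, and in 10 of the 11 windows. Of all 32851 promoter windows of this length, 35.7% held them, and of 27025 genes 38.2% held them in at least 1 window. These genes were not limited to those expressed here, while all 8 members are expressed. The core letters of the antioxidant response element, TGACNNNGC or GCNNNGTCA, occurred in 1 member, Sod1, against 14.0% of all genes and 12.4% of all windows. The Sod2 window is shown because Sod2 is the gene by which the set was chosen, and it holds 4 GC boxes on the forward strand, at bases 127 to 132, 142 to 147, 160 to 165 and 184 to 189 of the window. It lies on the plus strand at chr17:13007589-13007888, and capitals mark the GC boxes.
Sod2 promoter: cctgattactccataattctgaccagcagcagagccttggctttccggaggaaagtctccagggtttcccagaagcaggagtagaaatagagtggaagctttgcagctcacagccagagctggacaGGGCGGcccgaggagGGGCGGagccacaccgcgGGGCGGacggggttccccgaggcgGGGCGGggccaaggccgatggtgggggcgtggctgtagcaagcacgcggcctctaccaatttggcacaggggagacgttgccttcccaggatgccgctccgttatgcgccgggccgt
Letters of this kind describe the window and do not show that a factor binds there.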

How the data were processed

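RNA of PFC, STR and SN pieces was sequenced by the submitters as TruSeq Stranded mRNA libraries. By their processing notes, the authors demultiplexed with bcl2fastq 2.20.0.422, aligned to mm10 with STAR 2.5.2b and counted reads per gene with featureCounts 1.5.1, and deposited raw counts with exon lengths. The strand setting of the counting was not stated. A gene entered a fit when 3 or more of its libraries reached 1 cpm, and was tested with edgeR 4.0.16 in R 4.3.3 (TMM, trended dispersion, two-sided quasi-likelihood F test, Benjamini-Hochberg over all genes of the fit). Genotypes were compared within each model and region, regions and models in WT mice, and effects between regions as interactions. Alternatives were DESeq2 1.42.0 and its size factors, no filter, a likelihood ratio test, the mouse as a block, leaving out mice, and a length correction (lowess, span 0.3). In a self-test of the fits on simulated data, DESeq2 made more false calls than its nominal share. Whether that holds for its calls here was not tested.

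The members and lists were chosen with earlier results of these data known. Named list genes are, per comparison, the 2 called genes with the largest rise and the 2 with the largest fall over all lists, and genes most like Sod2 are the 5 with the highest r. Libraries with the same mouse number resembled each other (median r 0.20 to 0.34 over pairs of regions, against -0.02 to -0.01 for other mice), so numbers were read as mice. No library was left out of the results unless stated.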

Additional observations from a re-analysis of the deposited data

Results flagged for a closer look

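In 11 of 180 groups of member levels, 1 library stood far from the others of its group, and chance gives about 1 in 20 groups, or 9. Sod2 was highest in M3585 of AAV-Cre STR WT (147 cpm) and in M4393 of Nestin-Cre STR HOM (187 cpm). Sod1 was lowest in M3578 of AAV-Cre PFC WT (143 cpm) and highest in M3676 of AAV-Cre STR HET (200.4 cpm). Sod3 was highest in M3676 of AAV-Cre SN HET (22.5 cpm), the library with the high choroid plexus markers, and lowest in M4564 of Nestin-Cre PFC HET (3.61 cpm). Cat was highest in M3690 of AAV-Cre STR HOM (64.2 cpm), and Gpx1 in M3586 of AAV-Cre PFC HET (76.0 cpm). Gpx4 was highest in M3576 of AAV-Cre SN WT (140.4 cpm) and in M3567 of AAV-Cre STR HOM (139.7 cpm). Prdx3 was lowest in M4609 of Nestin-Cre STR WT (76.4 cpm).

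Region differences in WT mice differed between the models by a test of that difference (AAV-Cre minus Nestin-Cre, log2), which was added after seeing the data. For STR against PFC this held for Sod1 (-0.62), Gpx1 (-0.74), Gpx4 (-0.52), Prdx5 (-0.26) and Txn2 (-0.38). With the mouse as a block, 4 members were called in that comparison. For SN against PFC it held for Sod1 (-0.76), Sod3 (-1.32), Cat (-0.56), Gpx1 (-0.88), Gpx4 (-0.74), Prdx3 (-0.40), Prdx5 (-0.37) and Txn2 (-0.23). The value of Sod2 there (0.31) is a description with no test, since it rests on libraries that took part in its selection. For SN against STR it held for Sod3 (-1.22) and Cat (-0.55). With the mouse as a block, Sod3 lost that call and 4 members were called. With the length trend removed, Prdx5 turned to 0.11 and 0.21 in the first and second comparison and Txn2 to 0.060 in the second. Age, injection and source of Cre differ together between the models and cannot be told apart.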

How the results depend on the processing

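The number of members called stayed within 1.5 times the reported one in 182 counts under an alternative, rose by more in 3 and fell by more in 2. It was 2 in place of 0 in Nestin-Cre STR HET against WT with the likelihood ratio test, and 1 in place of 0 for the AAV-Cre HET effect in SN minus PFC with DESeq2. For the model difference of SN against STR, in place of 2, it was 1 without the filter on low counts, where Sod3 lost the call, and 4 with the mouse as a block. For that of STR against PFC it was 3 in place of 5 with the block and the length trend removed. In Nestin-Cre PFC, 0 members were called in either genotype whichever HOM mouse was left out. The cause was not tested in any of these.

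Of the log2 differences of members, 1833 kept their side of the threshold. Those called kept their sign, and those not called moved by less than the SE. Another 28 became called, 23 lost the call and 22 without a call moved by at least the SE. A further 14, called before or after, changed sign, and sign changes without a call were not counted. All 14 of these arose with the length trend removed, an alternative chosen after seeing the data, without or with the mouse as a block (second value of each pair). In Nestin-Cre STR against PFC, Prdx5 was -0.24 and -0.28, and Txn2 -0.14 and -0.15. In Nestin-Cre SN against PFC, Prdx5 was -0.041 and -0.065. Between models Prdx5 was 0.038 in STR and 0.14 in SN. For model differences, Prdx5 was 0.11 and 0.15 in STR against PFC and 0.21 and 0.24 in SN against PFC, and Txn2 there 0.060 and 0.041. The alternative takes out differences shared by genes of like length, and why length moved was not tested.

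The number of all genes called differed more. With edgeR it was 0 in Nestin-Cre PFC HET, and 91 without M4575 and 0 to 54 when a HOM mouse was left out of the fit. In Nestin-Cre PFC HOM it was 36, with 55 for DESeq2 size factors, 227 for DESeq2, 310 for the likelihood ratio test and 1 to 122 without a HOM mouse. Without the filter it was 2 in place of 0 in Nestin-Cre SN HOM, and 1 in place of 0 in AAV-Cre STR HOM and in AAV-Cre SN HOM. The other counts by DESeq2 and the likelihood ratio test stand in the report. With the mouse as a block, the HET effect of Nestin-Cre mice had 0 genes in place of 2 for SN minus PFC and 2 in place of 10 for SN minus STR. That of AAV-Cre mice had 136 in place of 3 for SN minus PFC and 0 in place of 1 for SN minus STR, and their HOM effect 0 in place of 1 for SN minus STR. For the model difference of STR against PFC, 2875 were called in place of 4496 with the length trend removed. Of the levels, 335 moved by less than 1 SD with raw totals or with TMM within each model and region, and 25 by more.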
